A study of Mus musculus with 16 samples.

Results

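The complement genes described here are the 9 rows of the count table whose Ensembl identifiers carry the symbols C1qa, C1qb, C1qc, C3, C4b, Cfb, Cfp, C3ar1 and C5ar1, out of 55421 genes in the table. They were chosen by name, with earlier results of these data known, and all 9 passed the filter on low counts. The RNA came from macrophages of mouse lymph nodes, sorted as live (7AAD-) CD45+ CD3- B220- Ly6G- CD11b+ CD169+ events. CD11c and side scatter divided them into sub-capsular sinus macrophages (SSMs, CD11c-, low scatter) and medullary sinus macrophages (MSMs, CD11c+, high scatter). Every library came from male C57B/6 mice that carried MOC2, a squamous cell carcinoma line implanted intradermally in the flank 2 weeks earlier, so no group was free of tumor. Tumor-draining nodes (tdLN) were set against non-draining nodes (ndLN) of tumor-bearing mice, which gave 4 groups with 2 libraries each (pool 1 and pool 2). A pool joined the nodes of 2 mice, 2 tdLN or 6 ndLN. The tumor was implanted near the inguinal node, and the ndLN were contralateral inguinal, axillary and brachial nodes. Node site and drainage of the tumor can therefore not be fully told apart. The age of the mice was not given in the sources used here. Each library had been sequenced in 2 lanes that agreed within sampling noise, so the lanes were summed and counted once, for 8 libraries of 42972328 to 48130352 counts.

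Complement is a cascade of plasma and tissue proteins that tags particles for uptake. C1q binds antibody complexes and dying cells and opens the classical pathway, which cleaves C4 and then C3. The alternative pathway amplifies C3 cleavage through factor B, held in place by properdin, while the cleavage fragments C3a and C5a signal through receptors on myeloid cells. Macrophages are a main source of C1q in tissues, whereas most circulating C3 and C4 comes from the liver.

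SSMs from tdLN held more mRNA of every one of the 9 genes than SSMs from ndLN in both pools, and the differences of C1qa, C1qb, C1qc, C3, Cfp and C3ar1 passed the test. Of 15 alternative settings, these calls held in 11 for Cfp, 9 for each C1q gene, 8 for C3 and 6 for C3ar1. SSMs also held more C3 than MSMs in both kinds of node, more C4b, C3ar1 and C5ar1 in tdLN, and less Cfp in ndLN. C5ar1 was higher in SSMs in ndLN too, with a call that held in 8 of 15 alternative settings. The C1q genes did not separate SSMs from MSMs in ndLN. No gene of the 9 passed the test between tdLN and ndLN within MSMs.

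Levels are CPM, a gene's counts scaled to the size of its library after TMM normalization, and 3 counts, the floor used here, corresponded to 0.0623 to 0.0698 CPM of the unscaled library. Differences are log2 fold changes ± SE from the quasi-likelihood test of edgeR, adjusted after Benjamini and Hochberg over 21085 genes, with 2 libraries a group. A gene is said to have passed, risen or fallen when its adjusted p was under 0.01 and its mean normalized count was over 100. In sorted bulk RNA, fewer cells of a type and less RNA per cell cannot be told apart. The p-values rest on the spread left over all 8 libraries after group and pool terms, moderated across genes, with 2 pools of mice a group.

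The sequences before the start sites of the C1q genes and of C3 and Cfp are shown because the C1q neighbours moved together and C3 and Cfp differed between the subsets in opposite directions. They come from RefSeq (GRCm38.p6), in which 6 of the 9 genes had an entry (not C1qa, C4b or Cfb), and cover up to 250 bases before the start, written in the direction of the gene and stopping short of any exon of the gene in GENCODE M21. Capitals mark matches on either strand to letters from the sites of named transcription factors. GAGGAA is the core bound by PU.1, a myeloid factor. TGCTGA belongs to the Maf site and TATAAA to the TATA box. The C/EBP site was searched as TTGCNNAA.
C1qb, chr4:136886201-136886450, minus strand: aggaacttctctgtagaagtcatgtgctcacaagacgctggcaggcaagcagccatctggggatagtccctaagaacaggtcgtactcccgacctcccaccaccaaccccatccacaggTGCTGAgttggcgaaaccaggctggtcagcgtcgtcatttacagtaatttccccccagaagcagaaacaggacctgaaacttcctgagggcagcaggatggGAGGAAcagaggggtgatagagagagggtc
C1qc, chr4:136893066-136893164, minus strand: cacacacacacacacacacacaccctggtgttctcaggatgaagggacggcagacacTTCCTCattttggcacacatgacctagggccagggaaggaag
C3, chr17:57228137-57228386, minus strand: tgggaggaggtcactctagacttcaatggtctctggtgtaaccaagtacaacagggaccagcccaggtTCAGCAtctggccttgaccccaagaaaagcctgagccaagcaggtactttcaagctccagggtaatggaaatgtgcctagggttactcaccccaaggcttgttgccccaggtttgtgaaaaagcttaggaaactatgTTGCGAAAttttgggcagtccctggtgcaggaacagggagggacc
Cfp, chrX:20931556-20931805, minus strand: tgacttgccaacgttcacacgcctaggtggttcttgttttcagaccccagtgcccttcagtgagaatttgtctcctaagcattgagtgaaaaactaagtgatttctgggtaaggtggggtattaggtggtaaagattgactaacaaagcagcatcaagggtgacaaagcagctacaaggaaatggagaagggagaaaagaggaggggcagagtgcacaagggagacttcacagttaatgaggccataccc
C1qb carried GAGGAA 30 bases and TGCTGA 131 bases before its start, C1qc carried GAGGAA on the opposite strand at 193 bases, and C3 carried TTGCGAAA, a match to TTGCNNAA, at 45 bases and TGCTGA on the opposite strand at 182 bases. The Cfp window held none of these letters, and no matches overlapped each other. Among 32851 promoter windows of 250 bases, GAGGAA was found in 23.25%, TGCTGA in 16.1%, TATAAA in 12.4% and TTGCNNAA in 9.56%, so single matches are common. C3ar1 also had TGCTGA on the opposite strand at 144 bases and TATAAA at 235 bases, and the match of C5ar1, TGCTGA at 17 bases, lay inside the gene as GENCODE M21 annotates it, in an intron of a longer transcript.

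The C1q chains are encoded side by side on the minus strand of chromosome 4 (GRCm38), with C1qb at chr4:136880129-136886187, C1qc at chr4:136889804-136893065 and C1qa at chr4:136895917-136898803. The gaps between them are 3617 and 2852 bases, none of their exons overlaps another gene, and none of their 50-base windows recurs elsewhere in the annotated transcripts. Each gene supplies a chain of the C1q molecule.

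C1qb stood at 41.6 and 26.1 CPM in SSMs from ndLN (pools 1 and 2), 471 and 363 CPM in SSMs from tdLN, 27.0 and 58.7 CPM in MSMs from ndLN, and 148 and 124 CPM in MSMs from tdLN. SSMs from tdLN were the highest group in both pools, MSMs from tdLN came next, and the ndLN libraries of the 2 subsets overlapped. Within SSMs the gene rose 12.3-fold in tdLN (log2 3.62 ± 0.39, adjusted p = 0.0026).
C1qa followed the same order, with 21.2 and 12.9 CPM in SSMs from ndLN, 205 and 161 CPM in SSMs from tdLN, 10.2 and 30.2 CPM in MSMs from ndLN, and 79.4 and 72.0 CPM in MSMs from tdLN. It rose 10.7-fold in SSMs from tdLN (log2 3.42 ± 0.46, adjusted p = 0.00554). As a ratio, the MSM ndLN pools differed more from each other than the pools of the other groups did.
C1qc was at 23.9 and 19.97 CPM in SSMs from ndLN, 204 and 161 CPM in SSMs from tdLN, 18.3 and 38.7 CPM in MSMs from ndLN, and 84.9 and 66.9 CPM in MSMs from tdLN. It rose 8.31-fold in SSMs from tdLN (log2 3.05 ± 0.35, adjusted p = 0.00294), and its ndLN libraries also overlapped between the subsets.

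**Figure D1:**
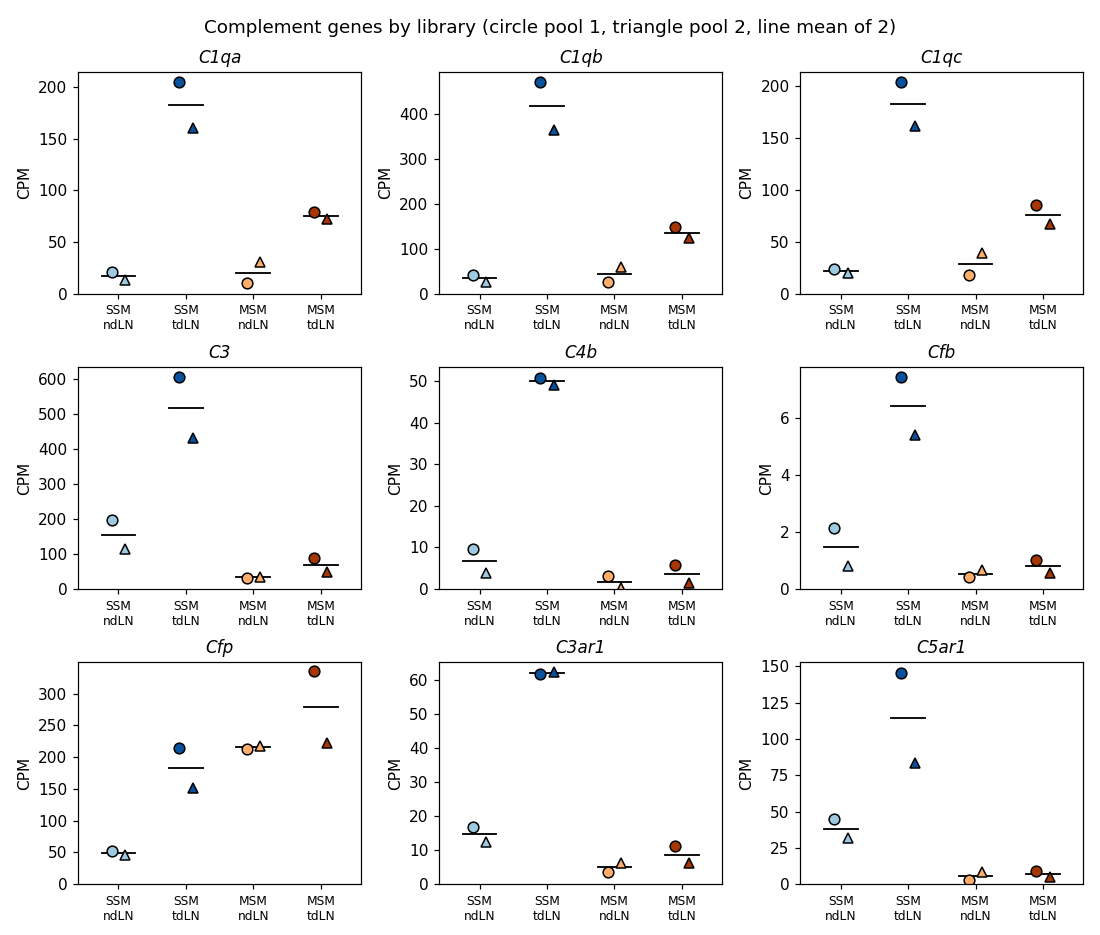
Level of each of the 9 complement genes in CPM (vertical axes start at 0 and differ between panels) in the 8 libraries, by group on the horizontal axis, with circles for pool 1, triangles for pool 2 and a line at the mean of 2. SSM tdLN is the highest group for every gene except Cfp, whose MSM tdLN libraries reach 222 and 335 CPM.

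Between the subsets the C1q genes gave different readings in the 2 kinds of node. In ndLN the differences SSM over MSM were log2 -0.25 ± 0.47 for C1qa, -0.36 ± 0.38 for C1qb and -0.39 ± 0.35 for C1qc, and their 95% intervals reached from -1.36 to 0.85, from -1.25 to 0.53 and from -1.20 to 0.43. These signs depended on the library, since with each library left out in turn the values ran from -1.05 to 0.90 for C1qa, from -1.04 to 0.51 for C1qb and from -0.98 to 0.42 for C1qc. In tdLN the SSM pools were above the MSM pools for each gene, by 2.42-fold for C1qa (adjusted p = 0.0843), 3.07-fold for C1qb (adjusted p = 0.0199) and 2.40-fold for C1qc (adjusted p = 0.0334), none past the cut-off of 0.01. With either MSM ndLN library left out, all of C1qa, C1qb and C1qc passed in tdLN, at adjusted p of 0.00709 and 0.00713 for C1qa.

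In MSMs, tdLN over ndLN was log2 1.89 ± 0.45 for C1qa, 1.65 ± 0.37 for C1qb and 1.40 ± 0.34 for C1qc, with adjusted p of 0.167, 0.151 and 0.171. Both MSM tdLN pools lay above both MSM ndLN pools for each of these genes. The interaction, which is the tdLN to ndLN difference in SSMs minus that in MSMs, was log2 1.53 ± 0.63, 1.98 ± 0.52 and 1.65 ± 0.47 for C1qa, C1qb and C1qc (adjusted p = 0.379, 0.155 and 0.185). A larger C1q difference in SSMs than in MSMs therefore did not pass the test of the difference itself.

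The chains kept similar proportions while their sum changed. Summed over the chains, C1q was 59.0 to 86.7 CPM in SSMs from ndLN, 685 to 880 CPM in SSMs from tdLN, 55.5 to 128 CPM in MSMs from ndLN and 263 to 312 CPM in MSMs from tdLN. Per kilobase of exon, C1qb made up 51.4% to 58.9% of the 3 chains over the 8 libraries, C1qa 22.3% to 31.8% and C1qc 14.3% to 22.1%. The smallest distance between any members' profiles was that of C1qa and C1qb, with a root-mean-square difference of 0.177 on the centred log2 scale over 8 libraries, followed by C1qb and C1qc at 0.272 and C1qa and C1qc at 0.304.

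C3 (chr17:57203970-57228136, minus strand) encodes the protein on which all activation pathways converge. It was at 197 and 113 CPM in SSMs from ndLN, 606 and 431 CPM in SSMs from tdLN, 32.0 and 33.9 CPM in MSMs from ndLN, and 87.6 and 49.3 CPM in MSMs from tdLN. Every SSM library was above every MSM library, and both tdLN groups were above the ndLN group of the same subset. SSMs exceeded MSMs 4.48-fold in ndLN (log2 2.16 ± 0.23, adjusted p = 0.000529) and 7.73-fold in tdLN (log2 2.95 ± 0.23, adjusted p = 0.00021). Both calls held in all 15 alternative settings. Within SSMs, C3 rose 3.40-fold in tdLN (log2 1.77 ± 0.22, adjusted p = 0.00401), a call that was lost without the pool term (adjusted p = 0.0119). In MSMs the difference was log2 0.98 ± 0.23 (adjusted p = 0.162), and the interaction was 0.79 ± 0.31 (adjusted p = 0.36).

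C4b (chr17:34728380-34743882, minus strand) encodes complement C4, the substrate of the C1 complex, and 34.6% of its 50-base windows also occur in C4a, so the split of reads between these paralogs is uncertain. Its levels were 9.56 and 3.94 CPM in SSMs from ndLN, 50.8 and 49.0 CPM in SSMs from tdLN, 3.00 and 0.111 CPM in MSMs from ndLN, and 5.87 and 1.36 CPM in MSMs from tdLN. SSMs from tdLN stood well apart from the other groups, and the MSM libraries spread widely at low level. SSMs exceeded MSMs 15.7-fold in tdLN (log2 3.97 ± 0.55, adjusted p = 0.00238), while in ndLN the difference was log2 2.20 ± 0.73 (adjusted p = 0.0705). The call in tdLN held in 11 of 15 alternatives, with log2 values from 3.19 (without SSM tdLN pool 2) to 5.01 (without SSM tdLN pool 1). It was lost without SSM tdLN pool 2 or either MSM tdLN pool (4.84 without pool 1) and in the legacy fit of edgeR, with adjusted p of at most 0.0381. The difference between tdLN and ndLN in SSMs was log2 3.03 ± 0.49 and just missed the cut-off (adjusted p = 0.0109). C4a itself stayed between 0.0881 and 1.82 CPM in all 8 libraries.

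The alternative pathway genes split. Cfp (chrX:20925454-20931555, minus strand) encodes properdin, which stabilizes the alternative pathway convertase. It was at 51.6 and 45.9 CPM in SSMs from ndLN, 215 and 151 CPM in SSMs from tdLN, 214 and 217 CPM in MSMs from ndLN, and 335 and 222 CPM in MSMs from tdLN. Only the SSM ndLN libraries were low, and in ndLN the SSMs lay 4.46-fold below the MSMs (log2 -2.16 ± 0.19, adjusted p = 0.0002), a call that also held in all 15 alternatives. In tdLN the SSM pools were still below the MSM pools, by 1.52-fold (adjusted p = 0.0582). Within SSMs, Cfp rose 3.72-fold in tdLN (log2 1.89 ± 0.18, adjusted p = 0.00214), whereas in MSMs the difference was log2 0.34 ± 0.18 (adjusted p = 0.501). Its interaction, log2 1.56 ± 0.25, had an adjusted p of 0.0403, the lowest of the 9 genes and above the cut-off of 0.01.

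Cfb (chr17:34856374-34862518, minus strand) encodes factor B, the protease part of the alternative pathway convertase. Its levels were 2.13 and 0.808 CPM in SSMs from ndLN, 7.42 and 5.39 CPM in SSMs from tdLN, 0.410 and 0.646 CPM in MSMs from ndLN, and 1.02 and 0.572 CPM in MSMs from tdLN. SSMs from tdLN were again the highest group. The fit gave log2 3.02 ± 0.47 for SSM over MSM in tdLN (adjusted p = 0.00403), but the mean normalized count of 52.1 was under the cut-off of 100, so the gene was not called. Of its 2825 exon bases, 2246 also belong to the same-strand readthrough gene Gm20547, which is listed at 0 counts in every library, and how reads from these bases were counted is not given in the sources used here.

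The anaphylatoxin receptors were higher in every SSM library than in any MSM library. C5ar1 (chr7:16246743-16259540, minus strand), which encodes the C5a receptor, was at 45.1 and 31.5 CPM in SSMs from ndLN, 146 and 83.3 CPM in SSMs from tdLN, 2.61 and 8.31 CPM in MSMs from ndLN, and 8.73 and 4.58 CPM in MSMs from tdLN. SSMs exceeded MSMs 6.55-fold in ndLN (log2 2.71 ± 0.49, adjusted p = 0.00617) and 17.2-fold in tdLN (log2 4.10 ± 0.48, adjusted p = 0.00113). The call in ndLN held in 8 of 15 alternatives and was lost in the legacy fit and without any single SSM or MSM tdLN library, with adjusted p of at most 0.0371. Its size depended on the MSM ndLN libraries, with log2 1.82 without pool 1 and 4.21 without pool 2. The call in tdLN held in 12 of 15 alternatives, with log2 3.73 to 4.49, and was lost without SSM tdLN pool 1 or either MSM tdLN pool. The tdLN to ndLN difference in SSMs was log2 1.56 ± 0.40 (adjusted p = 0.0531) and in MSMs 0.17 ± 0.57 (adjusted p = 0.971).
C3ar1 (chr6:122847138-122856161, minus strand), which encodes the C3a receptor, was at 16.7 and 12.4 CPM in SSMs from ndLN, 61.8 and 62.3 CPM in SSMs from tdLN, 3.59 and 6.24 CPM in MSMs from ndLN, and 11.3 and 6.10 CPM in MSMs from tdLN. The SSM tdLN pools were close to each other and far above the SSM ndLN pools. SSMs exceeded MSMs 7.27-fold in tdLN (log2 2.86 ± 0.32, adjusted p = 0.000914), with log2 2.45 to 3.35 over the alternatives and the call lost without either SSM tdLN pool or MSM tdLN pool 2, and in ndLN the difference was log2 1.53 ± 0.36 (adjusted p = 0.0194). Within SSMs the gene rose 4.28-fold in tdLN (log2 2.10 ± 0.30, adjusted p = 0.00671).

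**Figure D2:**
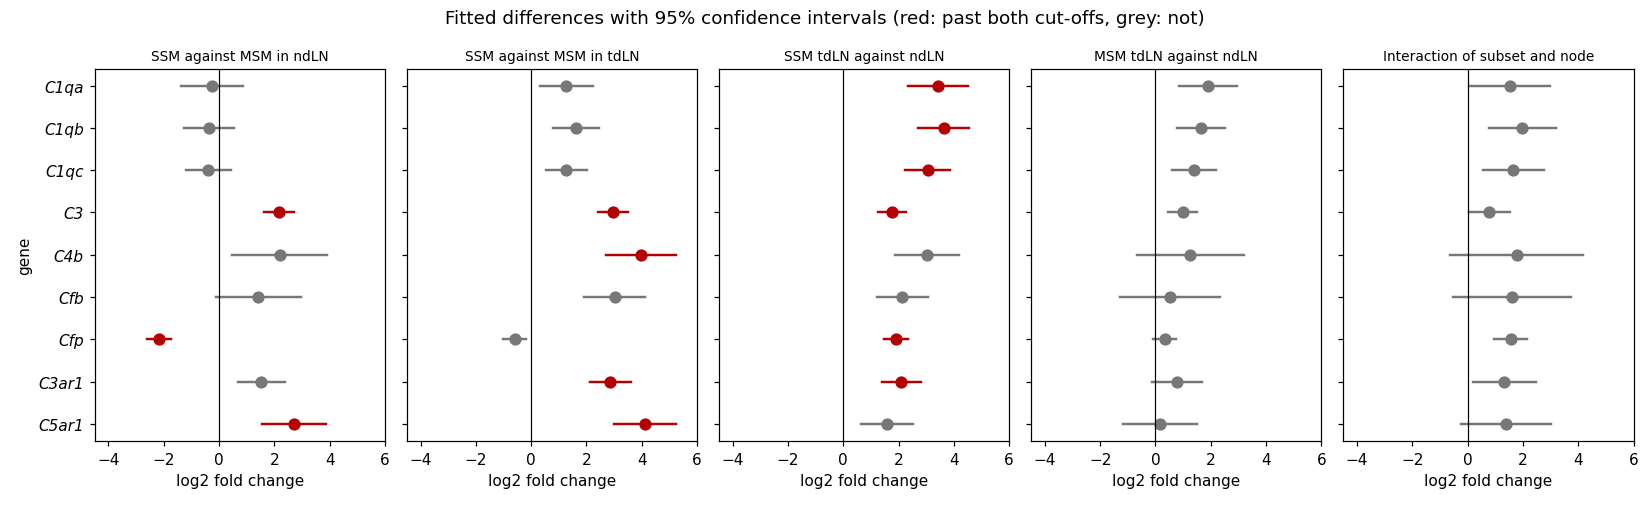
Log2 fold change (horizontal axis) of the 9 genes (vertical axis) in the 5 comparisons, with 95% confidence intervals, in red where both cut-offs were passed. In the SSM tdLN against ndLN panel every point lies to the right of 0, and in the ndLN subset panel Cfp, at -2.16, is the red point on the left.

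Counted over the members, 3 of 9 passed between SSMs and MSMs in ndLN (C3 and C5ar1 higher, Cfp lower in SSMs), where 12.1% of all tested genes passed. In tdLN 4 of 9 passed (C3, C4b, C3ar1 and C5ar1, all higher in SSMs), against 8.69% of all genes. Between tdLN and ndLN in SSMs 6 of 9 passed, all higher in tdLN, against 3.04% of all genes, and the libraries of the 2 groups did not overlap for 9 of 9 members and for 51.9% of all tested genes. The median member difference in that comparison was log2 2.13, and the median over all tested genes was -0.04.
Within MSMs 0 of 9 passed by edgeR, 4 of 9 had an unadjusted p under 0.05, and DESeq2 called 3 (C1qb, C1qc and C3). Over all tested genes the shares were 0.0237% by edgeR, 11.9% with an unadjusted p under 0.05 and 2.39% by DESeq2. For the interaction 0 of 9 passed by edgeR against 0.0379% of all genes, 6 of 9 had an unadjusted p under 0.05, and DESeq2 called 2 (C1qb and Cfp), where 12.3% of all genes had an unadjusted p under 0.05 and DESeq2 called 3.35%. The comparisons share libraries, so these counts are not independent of each other.

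The 6 calls in SSMs were lost when any single SSM library was left out. Such a fit has 1 library in a group. Calls over all genes between tdLN and ndLN in SSMs fell as well, also when an MSM library was left out. The loss is therefore not particular to the members. Without an MSM tdLN library Cfp alone kept its call, and without an MSM ndLN library C5ar1 passed in place of C3ar1. The call of C3ar1 held in 6 of 15 alternatives. The highest adjusted p of C1qb over these fits was 0.049. The differences stayed positive in every alternative, with C1qb between log2 3.29 and 4.05, C1qa between 3.03 and 3.94, C1qc between 2.79 and 3.27, C3 between 1.59 and 1.96, Cfp between 1.74 and 2.02 and C3ar1 between 1.94 and 2.27. In the tdLN comparison of the subsets, leaving out a library moved the count of members called from 4 to between 1 (without MSM tdLN pool 2) and 7 (without either MSM ndLN pool).

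**Figure D3:**
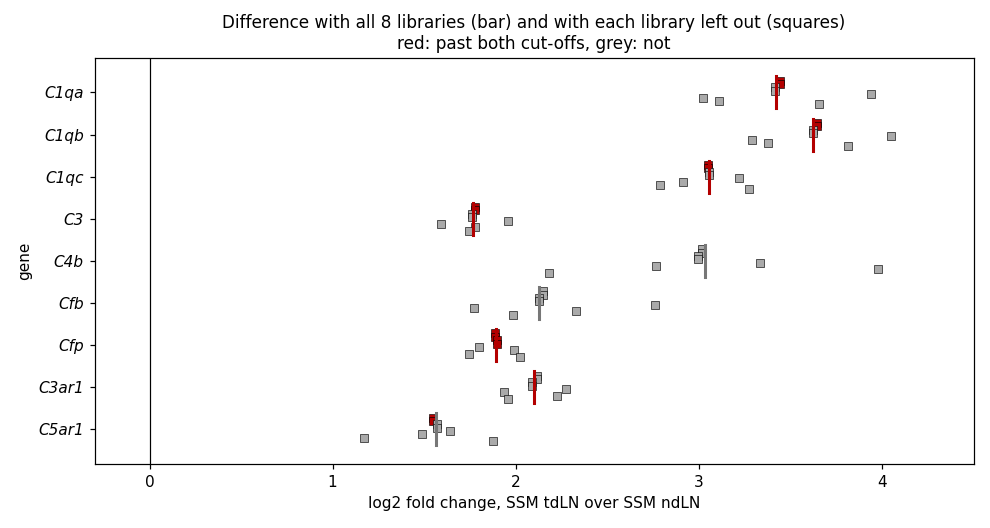
Log2 fold change of SSM tdLN over SSM ndLN (horizontal axis) for the 9 genes (vertical axis), with a bar for the fit to all 8 libraries and 8 squares for the fits with a library left out, in red where both cut-offs were passed. All squares stay to the right of 0, while most of them are grey because the call was lost.

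Per kilobase of exon, the order of the members differed between the groups. In SSMs from ndLN the mean levels of C1qb (31.1 CPM per kb), C3 (30.2) and Cfp (28.1) came first and their libraries overlapped, followed by C1qa (16.4), C5ar1 (14.9) and C1qc (11.4), then C3ar1 (3.39) and C4b (1.19). In SSMs from tdLN, C1qb led at 384 CPM per kb and C1qa followed at 176, both clear of the next genes, and Cfp (106), C3 (101) and C1qc (94.5) overlapped. In MSMs Cfp was first in both kinds of node, at 124 CPM per kb in ndLN and 161 in tdLN, with C1qb at 39.4 and 125. The MSM tdLN libraries of Cfp and C1qb overlapped, those of ndLN did not. Cfb was last in every group, with the limit on its counted bases given above.

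Of 48 other complement genes in the lists reported here, 34 could be tested and 10 had a mean normalized count over 100. Between SSMs and MSMs, 3 of the 34 were higher and 4 lower in SSMs in ndLN, where 12.1% of all tested genes passed. In tdLN 3 were higher and 2 lower, against 8.69% of all genes. DESeq2 called 8 in ndLN and 7 in tdLN, against 17.5% and 14.4% of all genes. Between tdLN and ndLN, 0 passed by edgeR in SSMs, in MSMs or for the interaction, against 3.04%, 0.0237% and 0.0379% of all genes. An unadjusted p under 0.05 was found for 14, 5 and 5 of the 34, and for 23.0%, 11.9% and 12.3% of all tested genes. DESeq2 called 5 between tdLN and ndLN in SSMs (Cd55, Cd93, Clu, Itgam and Itgax), Cd55 in MSMs, and 0 for the interaction, against 9.36%, 2.39% and 3.35% of all genes.

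Among the regulators, Clu, which encodes clusterin, an inhibitor of the terminal complex, was 3.33-fold lower in SSMs than in MSMs in ndLN (adjusted p = 0.00233). Cd55, a membrane regulator that speeds convertase decay, was 4.87-fold higher in SSMs in ndLN and 7.73-fold higher in tdLN (adjusted p = 0.000993 and 0.00175).

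Among the receptors, Itgam, the CD11b chain of complement receptor 3, was 5.90-fold higher in SSMs in ndLN and 6.30-fold higher in tdLN (adjusted p = 0.000167 and 0.000195), although both subsets had been gated as CD11b+. Itgax, the CD11c chain of complement receptor 4 that separated the subsets at the sort, was 5.08-fold lower in SSMs in ndLN and 2.55-fold lower in tdLN (adjusted p = 0.000132 and 0.00196). Its direction is fixed by the gate. Cd93, once described as a C1q receptor, was at 23.7 to 53.4 CPM in SSMs and 1.69 to 1.81 CPM in MSMs, and the differences were log2 4.72 ± 0.27 in ndLN and 3.85 ± 0.27 in tdLN. C1qbp, a mostly mitochondrial protein found by its binding to C1q, was 2.25-fold lower in SSMs in ndLN and 2.06-fold lower in tdLN (adjusted p = 0.00252 and 0.00552). The remaining call, Calr, which encodes calreticulin, another C1q-binding protein, was named after its values were seen and was 1.59-fold lower in SSMs in ndLN (adjusted p = 0.00382).

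C2, the protease that joins C4 in the classical convertase, is named after its values were seen. It was at 6.49 and 5.94 CPM in SSMs from ndLN, 1.17 and 0.963 CPM in SSMs from tdLN, 0.179 and 0.557 CPM in MSMs from ndLN, and 0.218 and 0 CPM in MSMs from tdLN. Its highest group was SSMs from ndLN, unlike the members. With a mean normalized count of 44.0 it fell under the cut-off of 100, and its log2 difference for tdLN over ndLN in SSMs was -2.54 ± 0.47 (adjusted p = 0.0112). The mannose-binding lectins Mbl1 and Mbl2, the terminal components C7, C8b and C9, and the macrophage receptor Vsig4 had no counts in any library, which allows up to 0.0623 to 0.0698 CPM.

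**Figure D4:**
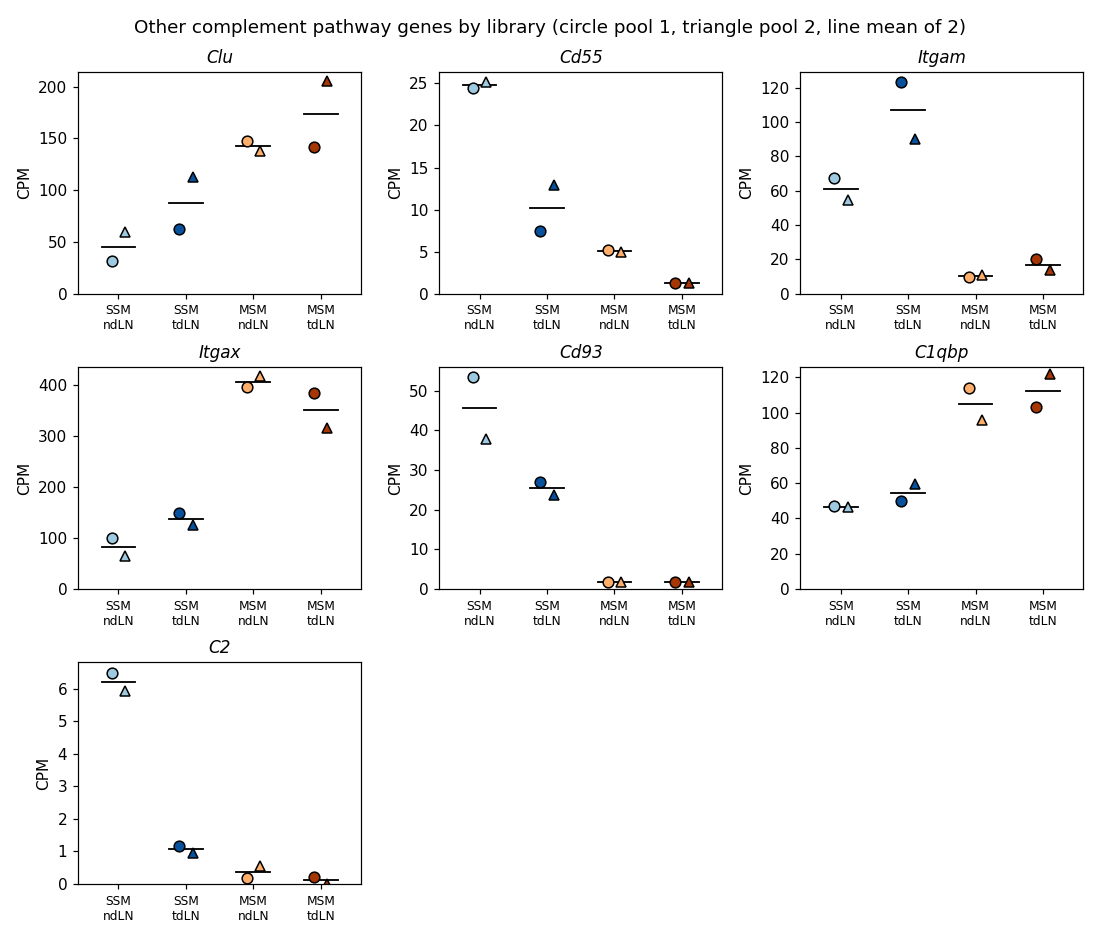
Level in CPM (vertical axes start at 0) of Clu, Cd55, Itgam, Itgax, Cd93, C1qbp and C2, by group, with circles for pool 1, triangles for pool 2 and a line at the mean of 2. Cd55, Itgam and Cd93 are higher in SSMs than in MSMs, Itgax, Clu and C1qbp are higher in MSMs, and C2 is highest in SSM ndLN.

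Sums of marker lists differed between the same groups. Siglec1, which encodes the CD169 used at the sort, was at 8.47 to 15.1 CPM in SSMs from ndLN, 59.2 to 70.0 CPM in SSMs from tdLN, and 0.795 to 5.96 CPM in MSMs, so the MSM libraries held little of it. The 10 sinus macrophage markers summed to 851 to 1128 CPM in SSMs from ndLN and 2365 to 2997 CPM in SSMs from tdLN. In MSMs they summed to 667 to 984 CPM. Csf1r, Cd68 and Adgre1 made up most of the sums in SSMs. Of these markers, 5 of 10 rose in SSMs from tdLN, where 3.04% of all tested genes passed. The fitted difference was negative for 2 of 10, Marco (means of 14.4 CPM in SSMs from ndLN and 9.59 CPM in SSMs from tdLN) and Timd4 (20.3 and 15.6 CPM). Between the subsets, 2 of 10 were higher and 3 lower in SSMs in ndLN, and 2 were higher and 0 lower in tdLN. The 8 monocyte markers summed to 1482 to 2720 CPM in SSMs from ndLN and 4743 to 4863 CPM in SSMs from tdLN. In MSMs they summed to 457 to 568 CPM. Of these markers, 5 of 8 were higher in SSMs than in MSMs in ndLN and 7 of 8 in tdLN. Of all tested genes, 12.1% and 8.69% passed between the subsets in ndLN and tdLN. The part of these cells in the complement differences was not tested.

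The 10 conventional dendritic cell markers summed to 4213 to 4820 CPM in MSMs and 975 to 2390 CPM in SSMs. In tdLN, where 8.69% of all tested genes passed, SSMs were lower for 10 of 10 of these markers. In ndLN, where 12.1% passed, SSMs were lower for 7 of 10 and higher for 0. There the libraries of the subsets overlapped for Ccr7, Itgae and Zbtb46, with Ccr7 at 1233 to 1877 CPM in SSMs and 1644 to 1662 CPM in MSMs. Of these markers, Xcr1 and Clec9a were at 630.4 to 752 CPM and 132 to 203 CPM in MSMs, and at 14.2 to 33.6 CPM and 0.807 to 2.08 CPM in SSMs. The 11 T cell markers summed to 2307 to 2534 CPM in SSMs from ndLN, 1018 to 1170 CPM in SSMs from tdLN and 492 to 824 CPM in MSMs, although CD3+ events had been gated out. Most of the MSM sum was Cd8a, at 357 to 605 CPM in MSMs and 10.0 to 25.7 CPM in SSMs. Cd3e was at 2.14 to 16.3 CPM in MSMs. The other 10 T cell markers had a positive fitted difference SSM over MSM in both kinds of node. The 12 basophil and mast cell markers summed to 2225 to 3299 CPM in SSMs from ndLN, 416 to 868 CPM in SSMs from tdLN and 312 to 692 CPM in MSMs. Nearly all of the MSM sum was Kit (269 to 614 CPM) and Hdc (34.6 to 69.5 CPM). Cpa3, Mcpt4 and Tpsb2 reached at most 1.94 CPM in MSMs. Kit was lower in SSMs than in MSMs, and the other 11 of these markers had a positive fitted difference in both kinds of node. Of these lists, 3 of 11 T cell markers fell in SSMs from tdLN, and 2 of 12 basophil and mast cell markers fell and 1 rose. In that comparison 3.04% of all tested genes passed. T cell and mast cell transcripts were thus higher in the SSM ndLN libraries where the members were lower, and their part in the differences was not tested.

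The 8 neutrophil markers summed to 38.9 and 230.2 CPM in SSMs from ndLN, 460 and 194 CPM in SSMs from tdLN, and 1.28 to 8.53 CPM in MSMs, with Ly6g at 0 counts in all but 1 library. The B cell markers were 1565 CPM in MSM ndLN pool 1 and 232 to 432 CPM in the other 7 libraries, the plasmacytoid dendritic cell markers 161 to 294 CPM in all 8 libraries, and the lymphatic endothelial and fibroblastic markers 39.7 to 107 CPM. Fibroblasts are a known source of C3 and C4, and of their markers Col1a1 and Dcn reached 7.85 and 15.2 CPM at most. The part of these lists in the complement differences was not tested.

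**Figure D5:**
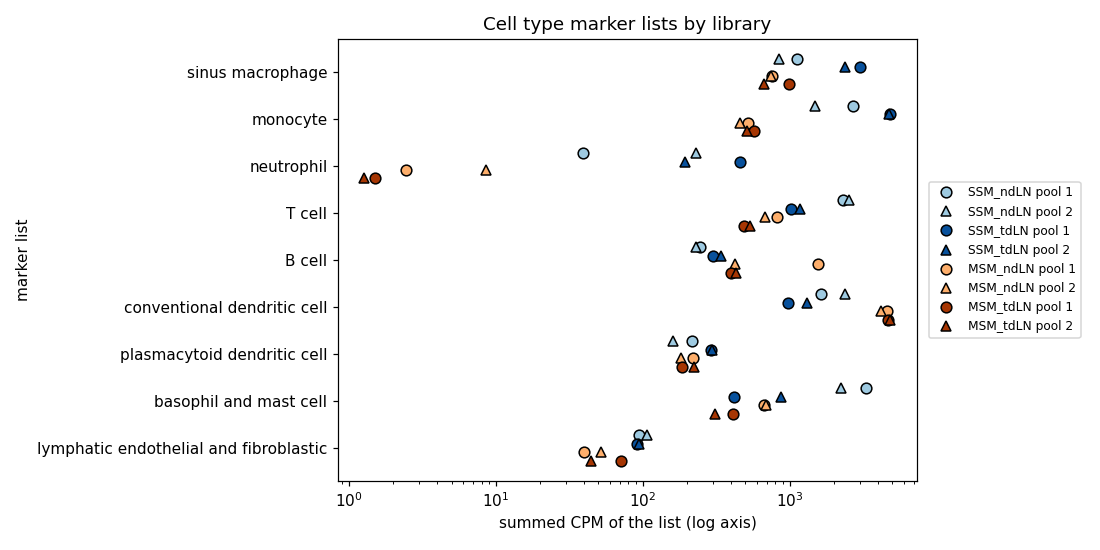
Summed CPM of 9 cell type marker lists (horizontal log axis) in the 8 libraries, colored by group, with circles for pool 1 and triangles for pool 2. Sinus macrophage and monocyte lists are highest in SSM tdLN, the T cell and the basophil and mast cell lists in SSM ndLN, and the conventional dendritic cell list in both MSM groups.

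The genes with patterns most like the members were found by the root-mean-square difference of centred log2 levels over the 8 libraries, among 9993 to 9996 genes with a mean normalized count over 100. Nearest to the mean of the C1q genes was Pltp, which encodes phospholipid transfer protein, at 0.339, with 70.0 and 53.2 CPM in SSMs from ndLN and 485 and 384 CPM in SSMs from tdLN. Tarm1 (0.440), Rab3il1 (0.444), Wfdc17 (0.482) and Cd300c2 (0.523) came next. C3 was nearest to the scavenger receptor Msr1 (0.189) and to Ms4a6b (0.190).
C3ar1 was nearest to F10, which encodes coagulation factor X (0.213), and to Dok3 (0.296), and C5ar1 to Clec4e, the receptor Mincle (0.248), and Trem3 (0.318). C4b was nearest to the high-affinity IgG receptor gene Fcgr1 (0.486) and to Arg2 (0.580), and Cfb to BE692007 (0.185) and Il1rn (0.189). Cfp, the member with higher levels in MSMs, was nearest to 5031439G07Rik (0.175) and Cttnbp2nl (0.219).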

How the data were processed

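Per the labels, RNA of sorted cells was amplified with the SMART-Seq v4 kit and sequenced in lanes 3 and 4. The authors aligned reads to GRCm38 (mm10) and deposited raw counts per gene, library and lane. The submitters' processing notes name bcl2fastq 2.20.0.422, Trimmomatic 0.36 and STAR 2.5.3a, and the strand setting is not given in the sources used here. Rows for 2 added sequences (1.66e-06% of counts) were left out. Lanes of a library were summed (chi-square per degree of freedom 0.955 to 1.01 between lanes of a library, 29.3 to 53.1 between pools), giving 8 libraries of 42972328 to 48130352 counts, and 2 pools a group limit the precision. No column was left unused.

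Genes with at least 10 counts in all and detection in at least 2 samples (21085) were fitted with edgeR 4.0.16 (R 4.3.3; TMM, quasi-likelihood, group and pool as terms, Benjamini-Hochberg), after the fit had been tested on simulated data. Called genes had an adjusted p under 0.01 and a mean normalized count over 100 on the scale of 1 lane. Alternatives were DESeq2 1.42.0, its size factors, no or a stricter filter, the legacy fit, a cut-off of 0.05, no pool term and each library left out. The study's methods count 4 pools, each giving all 4 groups, whereas the labels number pools 1 and 2 in 2 lanes, so n = 2 a group was used and the difference is not settled here. Deviations of same-numbered libraries correlated between -0.194 and 0.148.

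Members and lists were chosen with earlier results of these data known. Named were all 9 members, of each other complement list at most 4 called genes by size of the difference, Itgam and Itgax always, the 5 genes nearest to the C1q mean and 2 nearest to each other member, and the sums of marker lists. A gene of the lists is not reported here. Coordinates, exon lengths and shared windows come from GENCODE M21, promoters from RefSeq.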

Additional observations from a re-analysis of the deposited data

Results flagged for a closer look

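For Cfp the interaction was log2 1.56 (adjusted p = 0.0403, edgeR's quasi-likelihood test), with both SSM tdLN pools above both SSM ndLN pools. In this test the interaction missed the cut-off of 0.01 used for calls and passed only the looser threshold of 0.05. Its adjusted p ranged from 1.01e-05 with DESeq2 to 0.325 without SSM tdLN pool 1.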

How the results depend on the processing

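C3 and Cfp in ndLN and C3 in tdLN passed between SSMs and MSMs in all 15 alternatives, of which the looser cut-off of 0.05 could not lose a call. Among the member fold changes under the alternatives, 589 kept direction and side of the threshold, 55 fell below it, 21 rose above it and 10 changed sign. The cause of the changes below was not tested. In the fit without the pool block, 9 genes in all were called between tdLN and ndLN in MSMs (5 with it), and C3 in SSMs was the member call lost. DESeq2 called 3030 genes between the subsets in tdLN, 1973 between nodes in SSMs, 503 in MSMs and 706 for the interaction, with 3 members in MSMs and 2 for the interaction. Its size factors in edgeR left 4 genes for the interaction, and the legacy fit called 23 in MSMs. With a cut-off of 0.05 the counts of all genes were 3885 and 3023 between subsets in ndLN and tdLN, 1832 and 93 between nodes in SSMs and MSMs, and 215 for the interaction, with 1 member, Cfp. With each library left out in turn, all genes called ranged from 1082 to 2022 and from 507 to 1867 between subsets in ndLN and tdLN, from 2 to 345 and from 0 to 3 between nodes in SSMs and MSMs, and were 0 for the interaction. Members called ranged from 1 to 7 between subsets in tdLN and from 0 to 6 between nodes in SSMs. Log2 differences that changed sign ranged from -1.05 to 0.90 (C1qa), -1.04 to 0.51 (C1qb) and -0.98 to 0.42 (C1qc) in ndLN, from -0.75 to 1.65 (C5ar1) and -0.13 to 1.27 (Cfb) between nodes in MSMs, and from -1.42 to 2.69 (C4b) and -0.10 to 2.29 (C5ar1) for the interaction. A lone library of a group was assumed to vary like the other groups. Depth limited genes at under 1 CPM, such as Cfb in most MSM libraries.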
